A study of Mus musculus with 30 samples.

Results

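The histone genes of sorted mouse interneurons were taken by symbol, as every row that began with Hist1h, Hist2h, Hist3h, Hist4h, H2af, H3f3 or H1f. There were 83 of them among 23993 genes. Of these, 67 belonged to the Hist1, Hist2, Hist3 and Hist4 gene clusters and are called cluster genes here: 6 for H1, 18 for H2A, 18 for H2B, 12 for H3 and 13 for H4. The other 16 were variant genes outside the clusters, with 10 H2af, 4 H1f and 2 H3f3 symbols.

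Histones are the proteins around which DNA is wound. H2A, H2B, H3 and H4 form the core of the nucleosome and H1 binds the DNA that links nucleosomes. Most cluster genes are intronless and are transcribed in bulk while a cell copies its DNA, and their mRNAs typically end in a conserved stem-loop in place of a poly(A) tail. Variant genes are typically read at any time in the cell cycle and give polyadenylated mRNAs. Several supply replacement histones to cells that no longer divide, neurons among them.

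RNA was sequenced from tdTomato-positive cells sorted from the medial prefrontal cortex of young adult C57BL/6 mice. All mice carried Sst-Cre or Pvalb-Cre and the Ai9 (RCL-tdTomato) reporter, in which Cre switches on the red protein in somatostatin or parvalbumin cells. The groups were Sst female controls (7 libraries), Sst male controls (7), Sst males after 14 days of chronic unpredictable stress, CUS (3), and Pvalb male controls (7). A further 6 labelled samples, from a Pvalb female control and from females after CUS, are not analysed here.

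Sst male controls bore titles in either of 2 styles. Those with a short number (SST3-M, SST4-M and the pair SST0-M/SST1-M) are called numbered here, together with all female and Pvalb libraries, which were titled in the same way apart from SST-F with no number. SS04031R, SST040241L and SST04241LL carried a longer number, as did all CUS libraries, and are called dated, although the labels do not say what the number means. SS04031R bears the same long number as the CUS libraries, and the other dated controls do not. The pair SST0-M/SST1-M, and likewise PV0-M/PV2-M, held almost the same values, so each was averaged and counted once, which left 22 samples. The study gives its sample numbers in mice, but the labels tie no library to a mouse, so the p-values measure the spread between these samples.

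Values were FPKM, fragments scaled for transcript length and for the size of the library. The read counts of genes and libraries are not in the table, and the study states its sequencing depth only as a range for all samples. The astrocyte gene Slc1a2 was listed at 0 in every Sst control and at 741 FPKM or more in every Pvalb and CUS sample, so a value of 0 can be a failed estimate and is given here only as listed. Small nucleolar and Cajal body RNAs took 53.5% to 75.7% of the summed FPKM in the dated libraries and 1.87% to 8.29% in the numbered ones. Of 11 interneuron markers, 9, Gad1 and Pvalb among them, stayed at or below 11.4 FPKM in all samples and Sst at or below 49.3, while the summed level of the list was 34.1 to 296, and the microglial gene Cx3cr1 lay between 187 and 1253. PV1-M, PV4-M and PV5-M, labelled male, had 300 to 333 FPKM of the female-specific RNA Xist and go against their label. In bulk samples such as these, fewer cells of a type and less RNA per cell cannot be told apart.

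The stem-loop was searched for in GENCODE M1 transcripts after the coding part, as a stem of 6 base pairs that opens with GG and ends with CC and closes a loop of 4 bases. G-T pairs were allowed, T and A had to close the loop, and the loop had to hold T more than once. It was found in 45 of the 65 cluster genes with an annotated transcript, in 1 of 12 variants (H2afx), and in 152 of 22611 protein-coding genes in all (0.672%). In 16 of the cluster genes without it, the annotated transcript ended under 100 bases after the coding part, at its last base in some (Hist4h4 and Hist1h4k among them), and nothing past that end was searched. The sequences below are those of 5 cluster genes whose levels the results turn on and of the variant that holds it, with the 16-base stem-loop in capitals and 5 bases on each side.
Hist1h4h: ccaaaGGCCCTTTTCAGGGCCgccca
Hist1h4d: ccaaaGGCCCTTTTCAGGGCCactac
Hist2h2ac: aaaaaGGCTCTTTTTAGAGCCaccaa
Hist1h1c: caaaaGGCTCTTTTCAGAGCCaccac
Hist3h2a: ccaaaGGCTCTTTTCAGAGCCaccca
H2afx: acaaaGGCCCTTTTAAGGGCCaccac

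The form in Hist1h1c and Hist3h2a was the commonest, shared by 28 cluster genes. Hist1h4h and Hist1h4d had the same 16 bases, the form of 6 H4 genes, although their levels differed widely between the libraries. The transcript ended 46 bases after the stem-loop in Hist1h4h, 25 in Hist1h4d and 57 in Hist2h2ac, and went on for 839 bases in Hist1h1c, 1487 in Hist3h2a and 816 in H2afx.

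By RefSeq positions on GRCm38.p6, the assembly behind mm10, 52 cluster genes lay on chromosome 13 between bases 21715711 and 23934913. Another 10 lay on chromosome 3 between 96219885 and 96270192, 3 on chromosome 11 and 1 (Hist4h4) on chromosome 6. The variants were spread over 9 chromosomes. In the 250 bases before the start, TATAAA was present on either strand in 48.3% of 60 cluster promoters, 7.7% of 13 variant promoters and 13.0% of all 27025 promoters. CCAAT was present in 81.7%, 61.5% and 34.5%. The 120 bases before the start are shown for the H4 pair above and for Hist2h2ac, with TATAAA and CCAAT (or its reverse complement ATTGG) in capitals.
Hist1h4h, chr13:23530924-23531043, plus strand: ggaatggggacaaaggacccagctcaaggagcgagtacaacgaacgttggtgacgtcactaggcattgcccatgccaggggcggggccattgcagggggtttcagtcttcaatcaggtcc
Hist1h4d, chr13:23581448-23581567, plus strand: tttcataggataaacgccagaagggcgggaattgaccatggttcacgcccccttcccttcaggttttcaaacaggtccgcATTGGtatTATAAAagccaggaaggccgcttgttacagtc
Hist2h2ac, chr3:96220881-96221000, minus strand: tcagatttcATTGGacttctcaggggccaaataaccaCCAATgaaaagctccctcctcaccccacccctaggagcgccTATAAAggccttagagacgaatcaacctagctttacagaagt

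Hist1h4d and Hist2h2ac held both letter strings and Hist1h4h held neither in its 250 bases. Cluster genes resemble each other, and 23 of the 77 members with an annotated transcript shared over 50% of their 75-base windows with another protein-coding transcript. Hist2h2aa1 and Hist2h2aa2, and Hist1h2ao and Hist1h2ap, shared all of theirs and were listed at or near 0. Values of such pairs are uncertain, since reads can be split between them. The genes named below as changed shared 0% to 51.2% of their windows, apart from Hist1h4k with 68.1% and H2afy3, which had no transcript to search.

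Over the 22 samples, 42 cluster genes and 12 variants had a mean above 0.4 FPKM, the level above which the study counted a gene as expressed. Another 8 cluster genes and 3 variants (H1fnt, H2afb1 and H2afb2) were listed at 0 in all samples, and H1foo stayed below 1 FPKM. A few genes carried the sum: 8 cluster genes and 5 variants had a mean above 10 FPKM. H3f3b and H3f3a, which encode the same replacement H3 protein, had means of 118 and 81.3 FPKM, the H4 gene Hist1h4d 97.4, the linker histone gene Hist1h1e 73.5 and H2afz, an H2A variant found around transcription start sites, 61.3. The map of all samples shows how the levels were ordered.

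**Figure D1:**
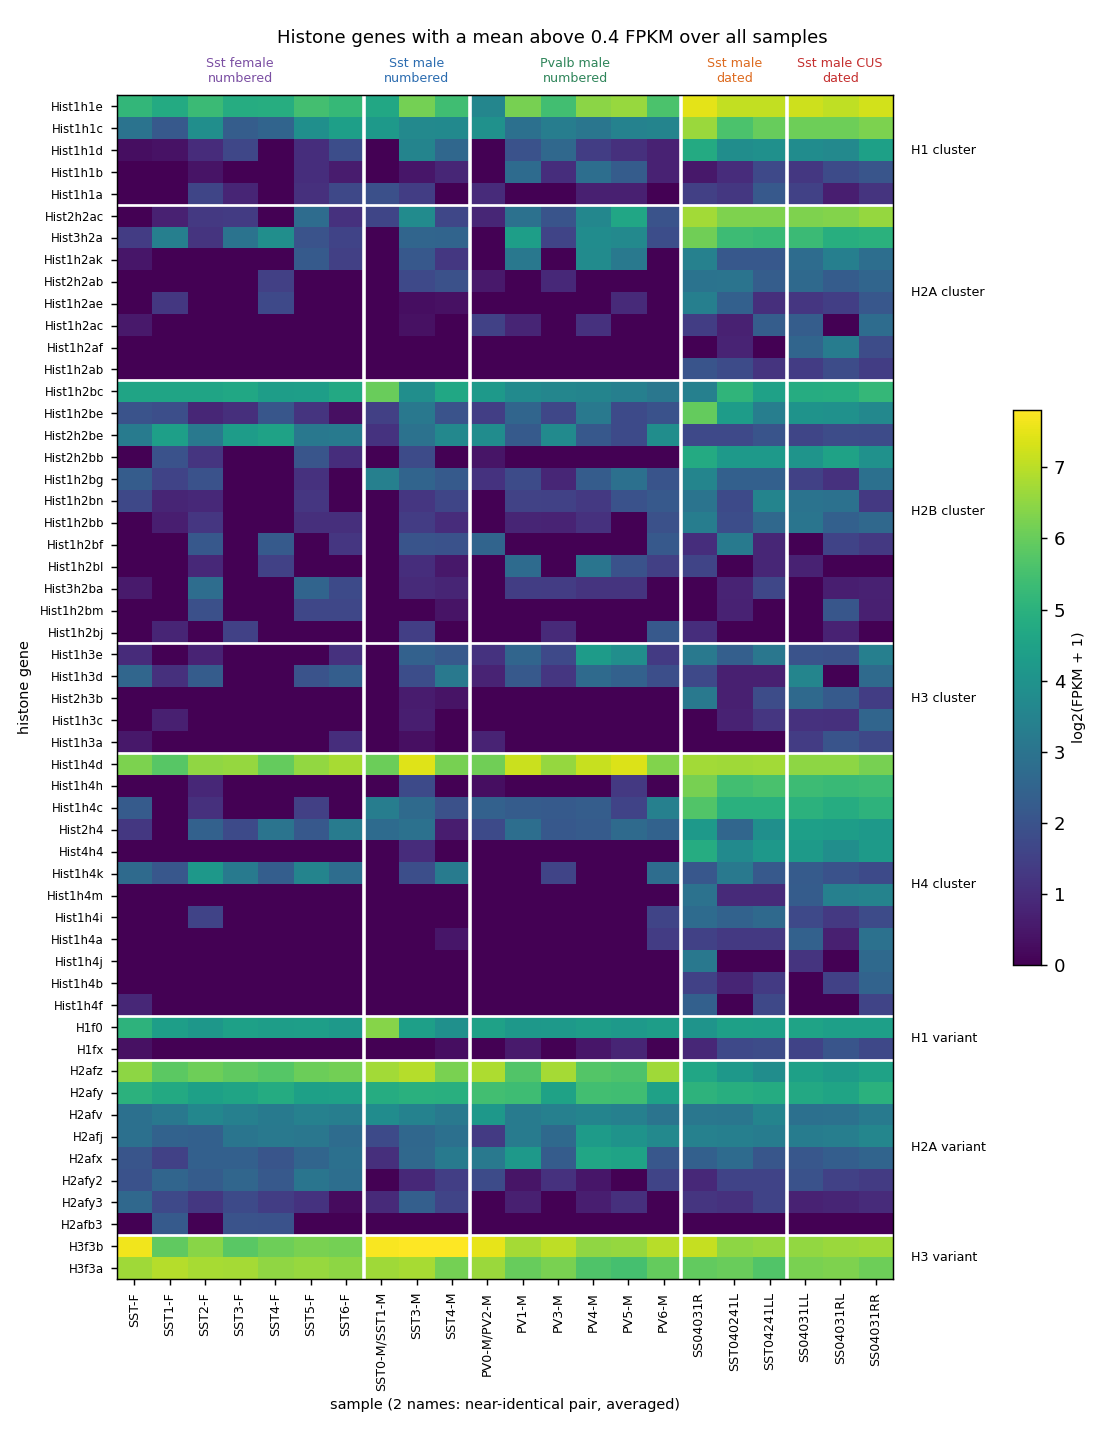
Levels of the 54 histone genes with a mean above 0.4 FPKM, as log2(FPKM + 1), in the 22 samples grouped by cell type, sex, stress and kind of title. The dated columns at the right are lighter for most cluster genes and darker for H2afz, while Hist1h4d and the variants H2afy and H2afv show no such step.

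The summed level of the cluster genes was higher in all dated samples than in all numbered ones. It was 973, 645 and 663 FPKM in the dated Sst male controls and 690, 659 and 729 in the CUS males. It was 204, 366 and 219 in the numbered Sst males, between 155 and 241 in the Sst females (median 193), and between 146 and 379 in the Pvalb males. The summed variants were at 234 to 296 FPKM in the dated libraries, 439 to 545 in the numbered Sst males, 284 to 476 in the females and 294 to 489 in the Pvalb males, so that the dated samples lay below the numbered Sst males and overlapped the edge of the other groups. Cluster genes thus made up 71.5% to 76.7% of the histone sum in dated samples and 23.0% to 56.4% in numbered ones.

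**Figure D2:**
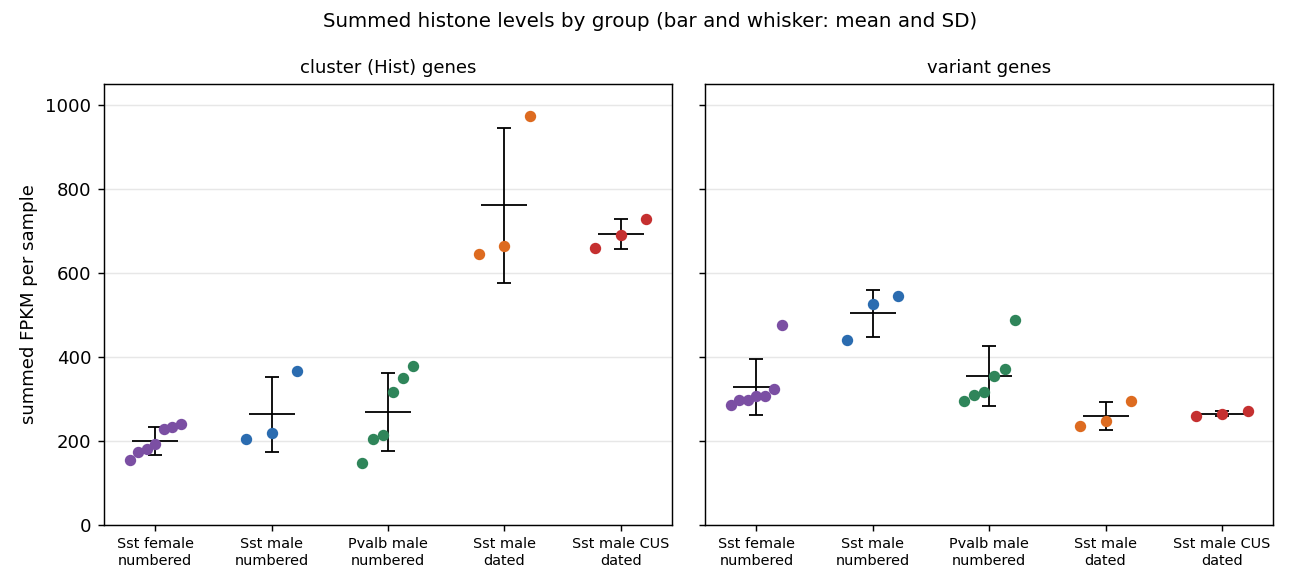
Summed FPKM of the 67 cluster genes (left) and the 16 variant genes (right) in each sample, by group, with mean and SD. Cluster sums are 645 FPKM or more in the dated groups and at most 379 in the numbered groups.

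The first comparison was between the dated and the numbered Sst male controls, which the labels place in a single group, with 3 samples each. In the dated samples 9 cluster genes were higher by limma on log2(FPKM + 1) with Benjamini-Hochberg adjustment over all genes, and 1 variant, H2afz, was lower. They were the linker gene Hist1h1c, the H2A genes Hist2h2ac, Hist3h2a and Hist1h2ab, the H2B gene Hist2h2bb and the H4 genes Hist1h4h, Hist4h4, Hist1h4c and Hist1h4i. Of 14230 genes tested, 1.81% were higher and 2.30% lower, against 9 and 0 of 43 cluster genes and 0 and 1 of 11 variants. The median difference on that scale was 1.36 for cluster genes, -0.24 for variants and -0.0042 for all genes. Of the 43 cluster genes, 39 had an estimate above 0, and 22 had all dated samples above all numbered ones, as 16.4% of all genes did. Genes entered by their mean over both groups. Cluster genes listed at 0 in all numbered males, such as Hist1h2ab and Hist1h4i, thus entered through their dated values alone. These could only come out above 0, which adds to the counts and the median. Without the filter, 46 of 56 cluster genes had an estimate above 0. No cluster gene and 3 variants had all dated samples below, as 17.0% of all genes did. The calls over all genes, 257 higher and 328 lower, became 576 and 530 with quantile normalization and 419 and 283 with a common total without small RNA genes, which moved the median of all genes to 0.22. Under these scalings 11 and 10 members were higher and 1 was lower.

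Hist1h4h, which encodes histone H4, had the largest difference. It stood at 73.6, 42.6 and 46.6 FPKM in SS04031R, SST040241L and SST04241LL, and at 0, 2.36 and 0 in SST0-M/SST1-M, SST3-M and then SST4-M. The difference in log2(FPKM + 1) was 5.16 (SE 0.53, limma adjusted p = 0.00587). Hist4h4, a lone H4 gene on chromosome 6, was at 27.4, 12.4 and 17.1 FPKM against 0, 0.995 and 0 in the same order, a difference of 3.92 (SE 0.46, limma adjusted p = 0.0105). Both were at or below 2.36 FPKM in the numbered males and above 12 in every dated control. Hist1h4c was at 50.9, 29.8 and 29.8 against 8.99, 5.54 and 2.82 (difference 2.54, SE 0.42, limma adjusted p = 0.0240). Hist1h4i was at 5.70, 4.51 and 5.41 and was listed at 0 in all numbered males (limma adjusted p = 0.0105), so no fold is given.

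Among the H2A genes, Hist2h2ac was at 105, 77.6 and 77.6 FPKM in the dated controls and at 2.11, 12.6 and 2.16 in the numbered ones, a difference of 4.09 (SE 0.57, limma adjusted p = 0.0160). Hist3h2a was at 67.7, 39.9 and 37.5 against 0, 4.83 and 4.66 (difference 3.89, SE 0.68, limma adjusted p = 0.0275). All dated samples were above all numbered ones for both genes. Hist1h2ab was low, at 3.10, 2.48 and 1.24, and listed at 0 in every numbered male (limma adjusted p = 0.0405). The H2A genes had the largest ratio of summed levels, 11.9, against 3.59 for H1, 2.09 for H4, 2.01 for H3 and 1.74 for H2B. The H2A sums of the numbered males were low and spread widely, from 2.11 to 25.6 FPKM, so the size of that ratio is uncertain.

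The H2B gene Hist2h2bb was at 26.6, 17.4 and 17.4 FPKM against 0, 2.41 and 0 (difference 3.81, SE 0.54, limma adjusted p = 0.0174). The linker gene Hist1h1c was at 98.1, 47.7 and 62.4 against 17.9, 11.9 and 12.01 (difference 2.20, SE 0.34, limma adjusted p = 0.0207). These groups did not overlap. Hist1h1e, the most abundant H1 gene, was also above in every dated sample, at 178, 136 and 136 against 24.8, 71.5 and 41.9, but did not pass the threshold (difference 1.80, SE 0.41, limma adjusted p = 0.0540). Hist1h2be had values of 61.1, 19.0 and 9.14 against 1.80, 7.71 and 2.96, with a difference of 2.34 (SE 0.70, limma adjusted p = 0.1025).

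Some abundant cluster genes did not follow. Hist1h4d, the H4 gene with the highest level, was at 106, 103 and 104 FPKM in the dated controls and at 65.0, 172 and 73.1 in the numbered ones (difference 0.16, SE 0.40, limma adjusted p = 0.844). Its dated values lay inside the numbered range. Hist1h2bc had values of 9.67, 33.4 and 20.9 against 63.8, 13.5 and 24.3 (difference -0.52, SE 0.62, limma adjusted p = 0.641), and Hist2h2be had 2.33, 2.31 and 3.05 against 1.19, 6.65 and 11.5 (difference -0.74, SE 0.63, limma adjusted p = 0.5045). Leaving out Hist1h4d raised the ratio of the summed cluster levels from 2.89 to 4.11. The ratio was 3.41 when the sum was taken relative to the FPKM of genes other than small RNAs.

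**Figure D3:**
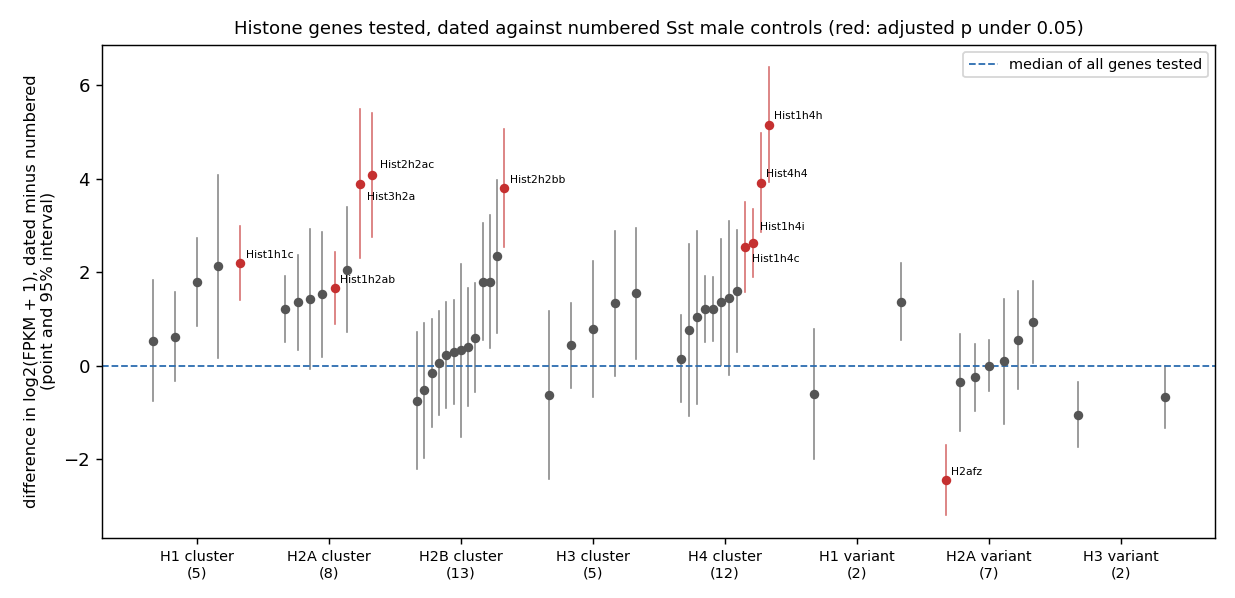
Points give the difference in log2(FPKM + 1) between 3 dated and 3 numbered Sst male controls for the 54 histone genes tested, by histone class, with 95% intervals; the dashed line is the median of all genes tested. The 9 cluster genes past the threshold (red) lie above the line and H2afz below it; Hist1h2ab and Hist1h4i were listed at 0 in all numbered samples, so their height depends on the added 1.

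Among the variants, H2afz fell. It was at 23.5, 16.8 and 13.1 FPKM in the dated controls and at 105, 122 and 74.2 in the numbered ones, a difference of -2.44 (SE 0.32, limma adjusted p = 0.0137). The CUS males, also dated, were at 18.1 to 21.7, below all numbered samples of any group, the lowest of which was 47.9. H2afv, which encodes the other H2A.Z protein, had 7.48, 7.33 and 10.5 against 12.8, 9.92 and 7.94 (difference -0.24, limma adjusted p = 0.662). The replacement H3 genes lay below in every dated sample without passing the threshold: H3f3b at 139, 88.8 and 94.1 against 210, 219 and 223 (difference -1.04, SE 0.29, limma adjusted p = 0.0907), and H3f3a at 60.4, 63.6 and 51.0 against 102, 109 and 71.3 (difference -0.66, SE 0.28, limma adjusted p = 0.2125).

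H1fx, a linker variant, was at 0.845, 2.28 and 2.51 FPKM against 0, 0 and 0.216 (difference 1.38, limma adjusted p = 0.0727), and H2afj, a minor H2A, at 9.76, 9.41 and 8.67 against 2.38, 5.16 and 6.43 (difference 0.94, limma adjusted p = 0.187). H2afy, which encodes macroH2A, an H2A with a large extra domain, hardly moved, at 32.1, 28.6 and 26.9 against 27.6, 29.9 and 29.6 (difference 0.0045, 95% interval -0.54 to 0.55). The linker variant H1f0 was at 15.6, 20.9 and 20.1 against 82.2, 20.4 and 14.0, the high value being that of the averaged pair. H2afx, whose protein is phosphorylated at DNA breaks and whose transcript holds the stem-loop, was at 4.20, 5.64 and 3.24 against 1.09, 5.17 and 8.17 (difference 0.10). H2afy2 had values of 0.857, 1.98 and 1.98 against 0, 0.885 and 1.73, and H2afy3, a transcribed pseudogene in RefSeq, 1.29, 1.16 and 1.97 against 0.925, 4.20 and 2.055. H2afb3 was listed at 0 in all males.

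The 28 tested cluster genes with the annotated stem-loop had a median difference of 1.36, with 26 above 0 and 7 higher. Genes in which it was not found are not set against them, since 11 of those tested had under 100 annotated bases in which it could lie. The 3 tested without it and with a longer end were Hist2h2bb, which rose, and Hist1h2bc and Hist2h2be, which did not pass the threshold. Outside the histones, the 240 tested genes of up to 700 bases had a median difference of -0.81, with 2.08% higher and 11.25% lower. Some cluster genes that were higher, Hist1h1c and Hist3h2a among them, have longer annotated transcripts. The part of transcript length in the histone result was not tested.

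Other gene groups moved with the title series, and their part in the histone result was not tested. Of 6 tested RNAs that lack a poly(A) tail, 4 were higher in the dated controls (Rmrp, Rpph1, Vaultrc5 and Rnu12, by 4.03 to 7.11 in log2(FPKM + 1)), and their list summed to 28074 to 39125 FPKM against 153 to 6692. Of 11 proliferation markers, 7 were tested and none passed, with a median difference of 0.82. The replication genes Mcm3 (10.6 to 21.5 against 0.750 to 8.54 FPKM), Mcm5 (1.30 to 2.51 against 0 to 0.702) and Tyms (16.6 to 24.9 against 4.16 to 12.6) were above in every dated control. Pcna (19.9 to 38.1 against 42.6 to 250.2), Ccna2 (0.230 to 0.764 against 1.19 to 2.16) and Mki67 (0.124 to 0.325 against 0.388 to 1.05) were below in each. Interneuron markers summed to 34.1 to 91.5 FPKM against 102 to 296, but none of the 5 tested passed, with a median difference of -0.26. Most markers on that list were low in all samples, as given above, so its sum rests on few genes. Excitatory neuron markers summed to 25.2 to 40.6 against 49.7 to 134, and none of the 4 tested passed. Of 11 tested microglial genes, 1, Tyrobp, was lower. Of 19 tested genes of histone mRNA processing, Upf1, a helicase needed for histone mRNA decay, was higher (29.9 ± 6.78 against 8.75 ± 2.46 FPKM, SD, n = 3 each, limma adjusted p = 0.0325). Of 22 tested histone chaperone genes, Supt16, a subunit of FACT, was higher (46.0 ± 4.87 against 18.9 ± 3.61, limma adjusted p = 0.0444).

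With 3 samples a group, the count turned on single samples. It was 13 higher and 2 lower without the averaged pair SST0-M/SST1-M, 3 and 1 without SS04031R, 2 and 0 without SST040241L, 1 and 0 without SST04241LL, 4 and 0 without SST3-M, and 3 and 1 without SST4-M. Calls over all genes moved as well, from 257 higher and 328 lower to 889 and 1073 without the averaged pair. They were 64 and 85 without SS04031R, 35 and 19 without SST040241L, and 36 and 21 without SST04241LL. Without SST3-M they were 50 and 26, and without SST4-M 58 and 80. The median of the cluster genes stayed between 1.14 and 1.60. Against all 10 numbered Sst controls of both sexes, 23 of 49 tested members were higher, among them 22 of 37 cluster genes, and 3 were lower (H2afz, H3f3a and Hist2h2be), where 12.5% of all genes were higher and 13.7% lower. There Hist1h1e and Hist1h2be were past the threshold (differences 2.03 and 2.95, limma adjusted p = 7.925e-05 and 0.00107). Of the 10 numbered samples 7 were female and the dated ones were all male, so sex is mixed into this fit.

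**Figure D4:**
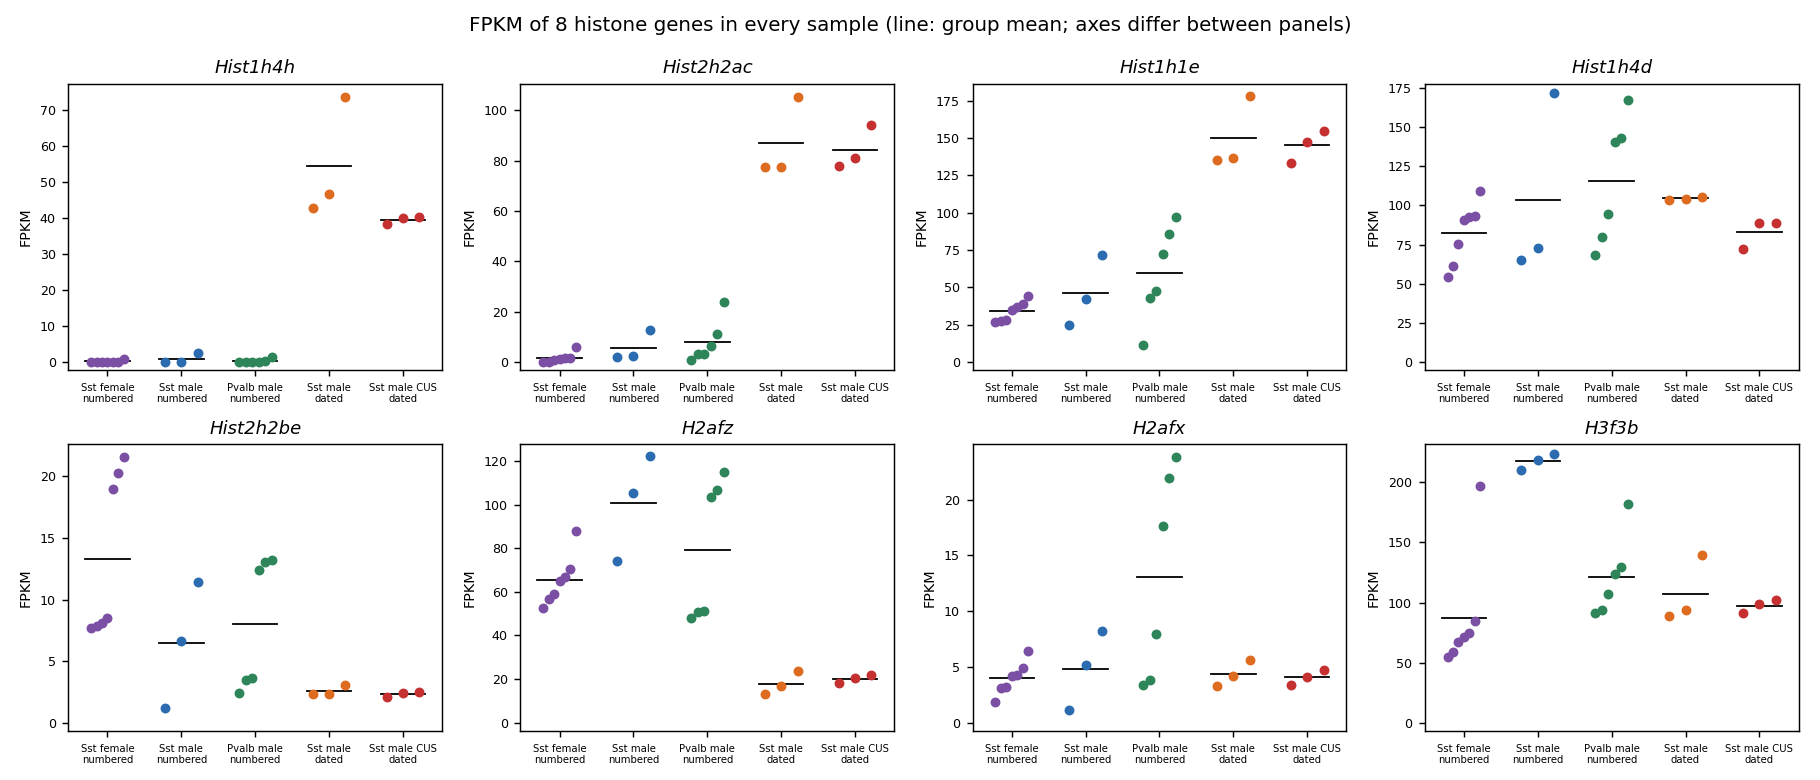
FPKM of 8 histone genes in every sample by group, with the group mean as a line; the axes differ between panels. Hist1h4h, Hist2h2ac and Hist1h1e are above all numbered samples in all dated ones, Hist1h4d is not, H2afz is below, and H3f3b is at 210 FPKM or more in all numbered Sst males.

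The question of sex was asked among numbered Sst controls, 7 females against 3 males, since no female library has a dated title. No cluster gene passed the threshold among 27 tested, and 5 had an unadjusted p under 0.05, as 24.3% of all genes did. H2afy2 was higher in females and H3f3b lower, so 1 and 1 of 11 tested variants, where 1.75% of 14443 genes were higher and 1.66% lower (253 and 240). With a common total without small RNA genes, these were 564 and 128, the median of all genes was 0.27, H2afy2 stayed the call in its direction and no member was lower. The median difference was -0.30 for cluster genes, -0.18 for variants and 0.054 for all genes.

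H2afy2, which encodes the second macroH2A, was between 2.93 and 7.27 FPKM in the females (median 4.80) and at 0, 0.885 and 1.73 in the males. All females were above all males, with a difference of 1.70 (SE 0.34, limma adjusted p = 0.0244). H3f3b was between 54.9 and 197 in the females (median 71.3) and at 210, 219 and 223 in the males, a difference of -1.45 (SE 0.33, limma adjusted p = 0.0416). The groups did not overlap, but SST-F, at 197, was close to the males and the other 6 females were at 84.4 or below. Its partner H3f3a had similar values in both sexes, 88.5 to 121 (median 103) against 102, 109 and 71.3.

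Both calls were lost when any of the 6 numbered females other than SST-F was left out, or SST3-M (no member passed). Without SST-F, 1 member was higher and 4 were lower. Calls over all genes moved in the same way, from 253 higher and 240 lower to 944 and 843 without SST-F. With any 1 of the other 6 females left out, 62 to 89 genes were higher and 41 to 63 lower. Without SST3-M they were 61 and 39. H3f3b missed the threshold with quantile normalization (difference -1.09, limma adjusted p = 0.0764) or against all male controls (-0.93, adjusted p = 0.0666). Of 12 markers of microglia, 4 were lower in the females (Cx3cr1, Csf1r, C1qb and Tyrobp) and 1 was higher. The list summed to 3612 to 6449 FPKM in females and 5783 to 9568 in males, while the endothelial genes Cldn5 and Cdh5 (2 of 6) and the oligodendrocyte gene Mobp (1 of 6) were higher. The part of these markers in the histone calls was not tested.

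Among the cluster genes, Hist1h4c came nearest, at 0 to 3.73 FPKM (median 0) in females against 8.99, 5.54 and 2.82 (difference -1.96, limma adjusted p = 0.0589). Hist2h2be was at 7.69 to 21.6 (median 8.47) in females, with SST1-F, SST3-F and SST4-F near 20 and the other 4 near 8, against 1.19, 6.65 and 11.5 in males (limma adjusted p = 0.2004). Those 3 libraries were also the ones in which H2afb3, an H2A variant known from the testis, was listed above 0, at 3.59, 2.96 and 2.93 FPKM. H2afz was at 52.7 to 88.1 (median 64.8) against 105, 122 and 74.2 (difference -0.60, limma adjusted p = 0.108).

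Cell types were compared between the 6 Pvalb male samples and the 10 numbered Sst controls of both sexes. Of these Sst samples 7 were female, so sex is mixed into the comparison. Against the numbered Sst males alone no member passed the threshold, and 13 of 14253 genes did. The cluster genes Hist1h1b and Hist1h3e were higher in the Pvalb samples, and Hist1h2bc, Hist1h4k, H2afy3 and H3f3a were lower, of 38 members tested. Of 14483 genes, 5.34% were higher and 4.87% lower, and the groups overlapped for each of the 6 members called. The median difference was 0.32 for cluster genes, 0.0047 for variants and -0.013 for all genes. The 773 higher and 705 lower genes became 563 and 920 with a common total without small RNA genes, with the same number of members called. Markers of other cells moved too: 5 of 6 endothelial genes were lower in Pvalb, and 2 of 12 microglial and 2 of 5 excitatory neuron genes were higher, and their part in the histone calls was not tested.

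H3f3a was between 44.2 and 99.2 FPKM (median 62.7) in Pvalb and between 71.3 and 121 (median 103) in Sst samples, a difference of -0.64 (SE 0.16, limma adjusted p = 0.0220). Hist1h2bc was at 7.52 to 17.6 (median 10.7) against 13.5 to 63.8 (median 22.7), a difference of -1.05 (SE 0.24, limma adjusted p = 0.0124). The groups overlapped, and the highest Pvalb sample for H3f3a, PV0-M/PV2-M, lay above 4 of the 10 Sst samples. Hist1h4k was listed at 0 in 4 of the 6 Pvalb samples and at 2.02 and 5.92 in the others, against 0 to 17.0 (median 5.77), with a difference of -1.87 (limma adjusted p = 0.0354). H2afy3 was at 0 to 1.12 against 0.173 to 5.29 (difference -1.11, limma adjusted p = 0.0303).

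The 3 Pvalb libraries that carry Xist stood apart in some histone genes, and the share of all genes that split likewise is not given. Other lists split too: histone chaperones summed to 412 to 453 FPKM in them and 514 to 606 in the other Pvalb samples. Oligodendrocyte markers summed to 669 to 699 against 758 to 1333. The H2B cluster sums overlapped, at 27.4 to 36.9 against 32.0 to 42.0. Hist1h1b, a linker gene, had 5.68, 6.00 and 3.83 FPKM in them (in the order PV1-M, PV4-M, PV5-M) and 0, 1.03 and 0.667 in the other Pvalb samples, against 0 to 1.01 in Sst samples (difference over all 6 samples 1.27, SE 0.37, limma adjusted p = 0.0358). Hist1h3e was at 4.81, 18.5 and 13.6 in the 3 libraries and at 1.19, 2.32 and 1.51 in the rest, against 0 to 4.37 (difference 1.73, SE 0.51, limma adjusted p = 0.0380). Only in those 3 libraries did either gene exceed the highest Sst sample by more than 0.1 FPKM.

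The same libraries were high for H2afx, at 17.7, 23.8 and 21.9 FPKM against 7.95, 3.81 and 3.38 in the other Pvalb samples and 1.09 to 8.17 in Sst samples (difference over all 6 samples 1.22, SE 0.40, limma adjusted p = 0.0566). They were also high for Hist1h1e (72.2, 85.8 and 97.3 against 11.1, 42.9 and 47.7) and Hist3h2a (19.6, 12.9 and 11.9 against 0, 2.02 and 2.62). H2afz went the other way, at 50.9, 51.1 and 47.9 against 115, 107 and 104, and so did Hist2h2be, at 3.61, 3.43 and 2.38 against 13.0, 12.4 and 13.2. The summed cluster level was 316, 348 and 379 FPKM in the 3 libraries and 146, 203 and 215 in the others.

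Without the 3 libraries no member passed the threshold (9 of 14467 genes did), and 3 had an unadjusted p under 0.05. Hist1h3e then differed from Sst by 0.65 (limma adjusted p = 0.588), H3f3a by -0.35 (limma adjusted p = 0.415) and Hist1h2bc by -1.01 (limma adjusted p = 0.206). The proliferation markers summed to 54.0 to 55.6 FPKM in the 3 libraries and to 70.1 to 115 in the other Pvalb samples, and Mki67 was at most 0.742 in any Pvalb sample. With each Pvalb sample left out in turn, the counts were 7 higher and 5 lower without PV0-M/PV2-M, 0 and 1 without PV1-M or PV4-M, 0 and 2 without PV5-M, 4 and 3 without PV3-M, and 3 and 3 without PV6-M. Hist1h2bc was the only member that passed in each of them. Over all genes, 773 higher and 705 lower became 1485 and 1398 without PV0-M/PV2-M. They became 312 and 260 without PV1-M, 302 and 252 without PV4-M, and 299 and 255 without PV5-M. Without PV3-M they were 616 and 528, and without PV6-M 563 and 484.

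Stress was compared within the dated libraries, 3 CUS against 3 control Sst males. No histone gene of 59 tested passed the threshold by limma, and 4 had an unadjusted p under 0.05 (5 by limma without trend and robust, which also called none), where 6.74% of all genes had one. Of all 14186 genes tested, 0.00705% were higher and 0% lower. The median difference was -0.11 for cluster genes, 0.039 for variants and 0.0023 for all genes. In 4 members all CUS samples were above all controls and in 4 all were below, where 9.33% and 9.39% of all genes were.

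The levels of many abundant members overlapped between stress and control. Hist1h1e was at 148, 133 and 155 FPKM in SS04031LL, SS04031RL and SS04031RR and at 178, 136 and 136 in the controls. Hist2h2ac was at 77.9, 81.0 and 94.2 against 105, 77.6 and 77.6, and H3f3b at 91.5, 98.7 and 102 against 139, 88.8 and 94.1. In each of these the highest control was SS04031R. Among the exceptions was H3f3a, at 74.9, 78.3 and 67.0 against 60.4, 63.6 and 51.0, above in every CUS sample (difference 0.33, 95% interval -0.031 to 0.69, limma adjusted p = 0.647). Hist2h4, named after its values were seen, was also above in each, at 20.2, 19.3 and 17.6 against 17.5, 4.92 and 13.8. It did not pass the threshold. Other exceptions had all CUS samples below. Among these, Hist1h4d was at 88.5, 89.0 and 72.4 against 106, 103 and 104 (difference -0.33, 95% interval -0.69 to 0.029, limma adjusted p = 0.647). Hist1h4h was at 39.9, 38.2 and 40.1 against 73.6, 42.6 and 46.6, and did not pass the threshold either.

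**Figure D5:**
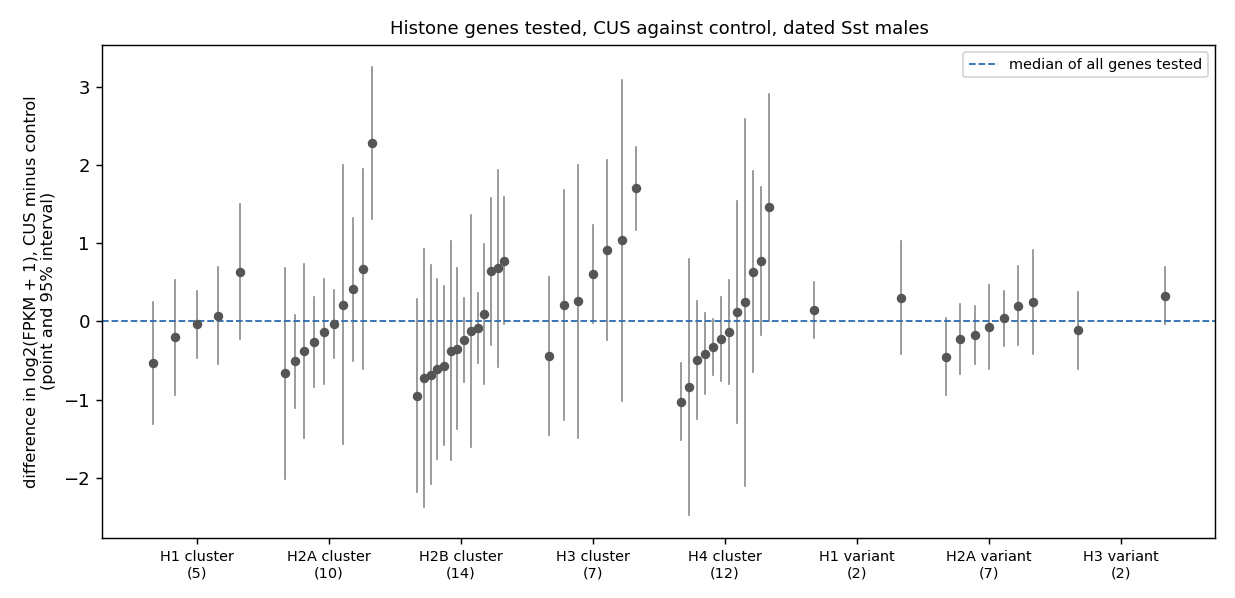
Difference in log2(FPKM + 1) between 3 CUS and 3 control dated Sst males for the 59 histone genes tested, by histone class, with 95% intervals; the dashed line is the median of all genes tested. None passed the adjusted threshold, and the intervals of the variants lie between -0.94 and 1.03.

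The 4 members with an unadjusted p under 0.05 were low cluster genes, named after their values were seen. The H2A gene Hist1h2af was at 4.79, 8.62 and 2.49 FPKM in CUS and at 0, 0.699 and 0 in the controls (difference 2.28, SE 0.41, limma adjusted p = 0.647), and was listed at 0 in all numbered samples. The H3 gene Hist1h3a was at 1.61, 3.08 and 2.23 and was listed at 0 in all dated controls (limma adjusted p = 0.346). The H4 gene Hist1h4i was at 2.32, 1.48 and 2.41 against 5.70, 4.51 and 5.41 (difference -1.02, limma adjusted p = 0.647), and Hist1h4m at 3.83, 9.52 and 10.4 against 6.77, 0.893 and 0.893 (difference 1.46, limma adjusted p = 0.647). Hist1h4m shared 89.0% and Hist1h2af 70.5% of their windows with other transcripts, Hist1h3a 38.5% and Hist1h4i 31.5%.

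The choice of controls decided the CUS result. Against the numbered Sst males alone, 18 of 56 tested members were higher and 2 lower, where 8.45% and 7.67% of all genes were, and the median of the cluster genes was 1.40. Against all male controls with the kind of title as a covariate, none passed. The lists of histone mRNA processing (19 tested) and chaperone genes (22 tested) had no member past the threshold in CUS, and microglia markers summed to 2677 to 3085 FPKM in CUS and 3330 to 7370 in the controls. Sums of other lists were above all controls: astrocyte (1869 to 2139 against 520 to 1307), oligodendrocyte (1600 to 1967 against 391 to 1284) and endothelial (126 to 204 against 15.7 to 117). Interneuron and excitatory neuron sums overlapped. SS04031R was the highest control for microglia and the lowest for these other lists. The part of these lists in the CUS result was not tested. In numbered samples, Zc3h8 of the processing list was lower (difference -1.47) and Ubn1 of the chaperone list higher (0.53) in Pvalb, and the chaperone gene Anp32e, which removes H2A.Z from nucleosomes, was lower in females (-0.73, limma adjusted p = 0.0437).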

How the data were processed

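The authors deposited 1 table of FPKM by gene symbol, of which 24 columns were matched to samples (0 unmatched). Per the Methods, trimmed reads were mapped to mm10 by HISAT2, StringTie gave the abundances, outlying samples were dropped and ComBat was used for batches. The submitters' processing notes name TopHat2, Cufflinks and Cuffdiff, and the Methods also name TopHat2, for an annotation step. Whether ComBat touched the deposited FPKM is not stated. No read counts were analysed here, so precision from counts cannot be given.

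Libraries were averaged when their log2 ratios, over genes above 5 FPKM, had an SD below 10% of the next most alike pair (0.0212 against 0.267 for SST0-M/SST1-M, and 0.017 against 0.225 for PV0-M/PV2-M). Genes averaging over 0.4 FPKM in a comparison entered limma 3.58.1 (R 4.3.3) on log2(FPKM + 1), a scale that understates differences of low genes. The fit used lmFit and eBayes, the latter with trend and robust. Tests were two-sided, and p-values were adjusted by Benjamini-Hochberg across the genes tested, with calls below 0.05. The code was tested on simulated data. GENCODE M1 transcripts matched 77 of 83 members, and RefSeq (GRCm38.p6) gave promoters for 73 and positions for 81. Python 3.11.15, pandas 2.3.3 and matplotlib 3.10.9 served for sequences and plots.

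Named were all variants above 0.4 FPKM on average, the 10 cluster genes with the highest mean, in each comparison the 3 largest rises and falls past the threshold and near-identical members of these, and list genes past the threshold. All other members past it, and those said to be so, were named after their values were seen. Values of some genes in the marker lists are not reported here, although list counts and sums include them. The members, lists and tests were chosen with earlier results of these data known. Alternatives were the pseudocount, filter, scaling, moderation, averaging, choice of controls, a block on the replicate number, and leaving out each sample, except the Sst samples in the comparison with Pvalb.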

Additional observations from a re-analysis of the deposited data

Results flagged for a closer look

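Within the 7 Sst female controls and the 6 Pvalb samples, 14 of 69 measures checked had 1 sample whose distance to the next was past Dixon's limit. In 5 of the 14 all other samples were listed at 0. The limit is set for about 1 in 20 with independent, normally distributed values. FPKM with many values of 0, and sums checked beside their own genes, are not such values. Whether the share set apart, 20.3%, is above chance thus cannot be told. No explanation was tested.

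SST-F was the highest female for H3f3b (197 FPKM, next 84.4), for the sum of the variants (476, next 324), for H1f0 (31.8, next 20.8), for H2afy3 (5.29, next 2.38) and for H1fx (0.286, the others listed at 0). SST2-F was highest for Hist1h4h (0.833) and Hist1h4i (1.95), both listed at 0 in the other females, and SST5-F for Hist2h2ac (5.75, next 1.58).

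Among the Pvalb samples, the averaged pair PV0-M/PV2-M was highest for H2afv (16.9, next 10.5) and Hist2h2bb (0.365, the others listed at 0). PV6-M was highest for Hist1h4c (9.53, next 4.40), Hist1h4k (5.92, next 2.02) and Hist1h4i (2.04, the others listed at 0), and PV5-M for Hist1h4h (1.43, next 0.228).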

How the results depend on the processing

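No result changed direction where it had been called, under any alternative. Apart from leaving out samples, 109 counts of members stayed within 1.5 times of the reported one, 21 rose and 23 fell, and 174 single-gene calls were kept and 41 lost. The cause was not tested. Read counts per gene are not in the table, so what depth allows for genes listed at or near 0 cannot be given.

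Dated against numbered males gave 19 members (17 higher, 2 lower) with every library counted on its own and 26 (23 and 3) against all numbered Sst controls. The cluster median was 2.60 with a pseudocount of 0.1 and 0.48 with 5. Leaving out 1 sample gave 1 to 15 (1 to 13 higher, 0 to 2 lower).

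Females against males gave 1 (0 lower) without a filter, with quantile normalization and with a common total, 5 (4 lower) with every library on its own, 12 (2 higher, 10 lower) against all males and 32 (4 and 28) against dated males alone. Leaving out 1 sample gave 0 to 5 (0 to 1 higher, 0 to 4 lower).

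Pvalb against Sst gave 1 higher with a pseudocount of 0.1 and against all Sst controls, 10 (5 higher) against numbered females, and 0 (0 higher, 0 lower) against numbered males or without the 3 libraries with Xist above 100 FPKM. Leaving out 1 Pvalb sample gave 1 to 12 (0 to 7 higher, 1 to 5 lower).

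CUS gave 20 (18 higher, 2 lower) against numbered males and 2 (2 higher) against all Sst controls, and 0 without any 1 sample. Its cluster median was 0.73 against all males and 1.20 against all Sst controls.

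Replicate numbers 1, 3 and 4 recur across groups, but same-numbered samples did not deviate together (correlations of -0.0395 to 0.0689). With a replicate block on these 6 samples, 0 members (0 higher, 0 lower) passed for sex and 0 (0 and 0) for cell type. Without the block the same samples, an alternative chosen after seeing the data, gave 2 and 0. For CUS no fit with a block was made, since the replicate numbers there are only names.

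Over all genes, 585 were called between dated and numbered males, against 381 without a filter, 1106 with quantile normalization, 1769 with every library on its own and 3805 against all numbered Sst controls. For sex, 253 higher and 240 lower genes became 2549 in all with every library on its own, 1699 against all males and 6032 against dated males. For cell type, 1478 became 3638 against females, 13 against males and 9 without the libraries with Xist. The 6 samples of the block fits gave 11 with the block and 24 without it for sex, and 10 either way for cell type. For CUS, 1 became 2309 against numbered males and 6 against all Sst controls. Leaving out 1 sample gave 54 to 1962 genes for the titles and 100 to 1787 for sex. It gave 554 to 2883 for cell type and 1 to 16 for CUS.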
